A study of Cochliomyia hominivorax with 18 samples.

Results

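The 200 steadiest midgut transcripts of the New World screwworm, Cochliomyia hominivorax, were those whose level varied least over all 18 libraries of larvae and adults reared before, during and after tetracycline. They were chosen from the counts themselves. Levels were expressed as CPM, a transcript's count scaled to a library total of 1000000 counts, and the 3821 transcripts with a mean of 20 to 300 CPM were ranked by the standard deviation (SD) of log2(CPM + 0.1) over the 18 libraries. The 200 with the smallest SD make up 5.23% of that level range and 0.892% of the 22420 transcripts listed. Their small spread is therefore the basis of the choice and not a finding.

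The screwworm is a fly whose larvae feed on living tissue of warm-blooded animals, and the midgut is the part of its gut that digests food and absorbs nutrients. RNA was taken from midguts of production flies, without a genotype, age or antibiotic dose in the labels. The 6 groups of 3 libraries were larva control, larva on-Tc, larva post-Tc, adult control, adult on-Tc and adult post-Tc, where Tc is tetracycline, control means before it, on-Tc during it and post-Tc after withdrawal. Collection time therefore cannot be told apart from treatment. The labels do not say how many animals a library pools or whether replicates came from separate cages, so each p-value reflects how far these particular libraries vary, which may be technical.

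Library totals ran from 19158409 to 79783813 counts, and no pair of libraries was identical. Among the larvae, control 2, post-Tc 1 and post-Tc 2 stood apart from the other 6 on the first principal component of log2 CPM, which held 31.6% of larval variance. That split crosses the treatment groups, so results that rest on these 3 libraries are also given without them. Each ID in the files joins the number of a gene to that of a transcript, and no gene name goes with it, so no function could be assigned, no marker of midgut or other cell types could be checked, and no sequence is printed.

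Transcripts that stay level while a tissue changes are of practical use. Quantitative PCR reads a gene of interest against reference genes assumed to be steady, usually genes for ribosomal proteins, the cytoskeleton or core metabolism, and that assumption has to be tested for each tissue, stage and treatment. Scaling of RNA sequencing libraries rests on a related assumption, that the typical transcript does not change. Larval and adult guts of a fly are built from different cell populations, since the larval midgut is replaced at metamorphosis, which makes constancy across the stages a demanding criterion. In bulk RNA, fewer cells of a type and less RNA per cell cannot be told apart, and a steady level can likewise hide changes that offset each other.

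The members spanned the SD from 0.121 to 0.235 log2 units, with a median of 0.209, where all 3821 transcripts of the level range had a median of 0.535. In a member the highest library was 1.38 to 2.05 times the lowest (median 1.69), and in 198 of the 200 it was less than 2 times the lowest. Over the whole level range the median of that ratio was 3.70, and it was under 2 for 420 transcripts. The limit of the list fell within a continuum. The last member, g4536.t1, had an SD of 0.2350 and ranged from 16.3 to 29.7 CPM, while the first transcript left out, g17254.t1, had an SD of 0.2352 and ranged from 20.1 to 39.8 CPM.

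**Figure D1:**
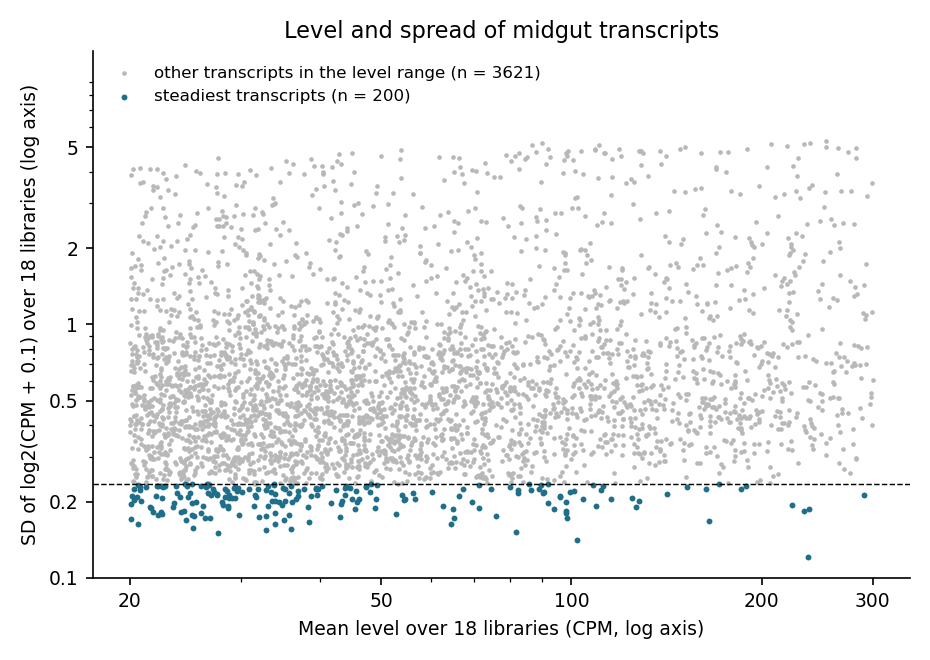
Mean level (CPM, log axis) against the SD of log2(CPM + 0.1) over 18 libraries (log axis) for the 3821 transcripts of the level range, with the 200 members in blue and the limit of 0.235 as a dashed line. The members form the lower edge of a continuous cloud and lie mostly at the low end of the level range.

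Low levels were common among the members. Their mean levels ran from 20.1 to 291 CPM with a median of 35.2, against a median of 48.6 CPM for the level range. Of the 1525 transcripts at 20 to 40 CPM, 117 were members (7.67%), whereas 10 of the 425 at 160 to 300 CPM were (2.35%). The median SD of all transcripts rose with level across these classes, from 0.498 at 20 to 40 CPM to 0.651 at 160 to 300 CPM. Outside the range, 6 of 574 transcripts above 300 CPM and 126 of 5221 at 1 to 20 CPM had an SD as small as that of the members. Counting noise was a minor part of the spread. The SD that counting alone would give was 0.0139 to 0.0526 log2 units in the members (median 0.0392), and no member had fewer than 342 counts in any library (counting error only, as PCR copies of a molecule cannot be told from separate molecules in these reads).

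None of the 200 members belongs to a gene number with more than 1 listed transcript. Such transcripts were also rare in the level range, at 21 of 3821 (0.550%), although they make up 2274 of the 22420 listed (10.1%). They were seldom abundant: 187 of the 2274 reached a mean of 1 CPM, against 9429 of the 20146 transcripts that are alone in their gene number. The authors' counting can split or discard reads shared between transcripts of a gene, and the part this plays in these low levels was not tested.

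The steadiest transcript was g16787.t1. In larvae it stood at 273, 243 and 240.4 CPM in controls 1 to 3, at 261, 246 and 224 CPM on-Tc and at 265, 256 and 225 CPM post-Tc. In adults it stood at 198, 223 and 251 CPM in controls 1 to 3, at 233, 220.5 and 239 CPM on-Tc and at 238, 209.8 and 223 CPM post-Tc. Larval libraries tended to be higher, with means of 248 ± 17.02 CPM (SD, n = 9) in larvae and 226 ± 16.06 CPM (SD, n = 9) in adults, but the stages overlapped. The treatment groups overlapped with their stage's controls throughout.

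The next in rank were g6507.t1, g6394.t1 and g6515.t1. For g6507.t1 the lowest, median and highest levels were 92.7, 98.5 and 109.8 CPM in larvae and 82.2, 103 and 123 CPM in adults. The adult extremes were both controls, adult control 1 at the bottom and adult control 3 at the top. For g6394.t1 they were 22.6, 27.2 and 32.0 CPM in larvae and 25.3, 27.9 and 34.3 CPM in adults, with larval control 2 the lowest and adult control 3 the highest. For g6515.t1 they were 71.4, 74.5 and 95.8 CPM in larvae and 69.2, 84.7 and 95.8 CPM in adults. In each of these the larval and adult ranges overlapped, and the extremes lay among controls in all of them, so the widest differences lay between libraries without tetracycline.

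**Figure D2:**
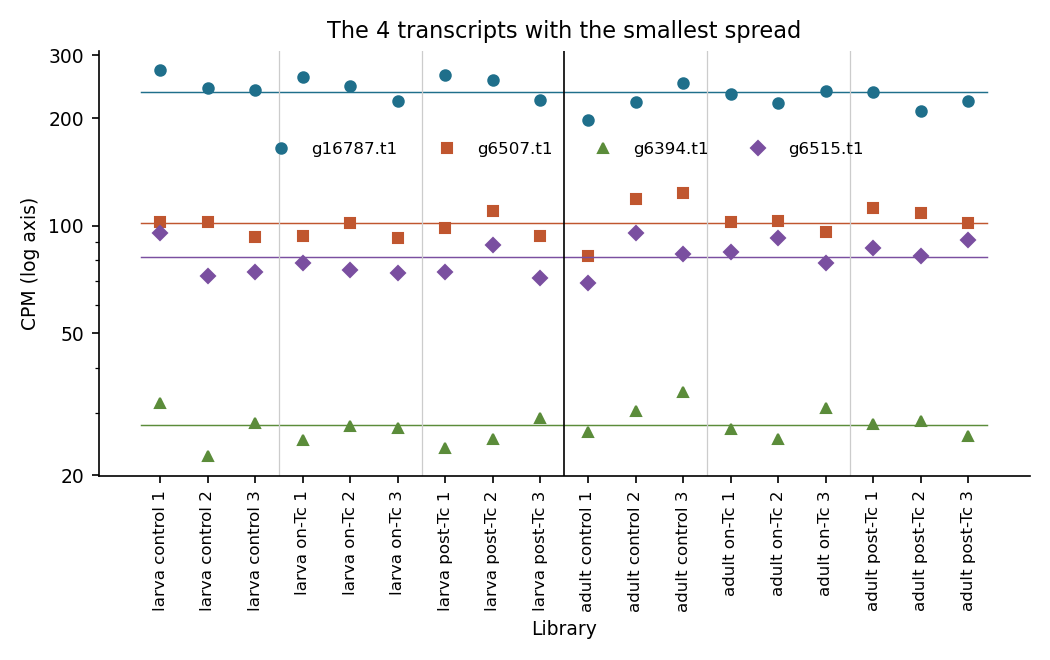
CPM (log axis) of the 4 steadiest transcripts in each of the 18 libraries, with each transcript's mean over all libraries as a line; the black vertical line parts larvae from adults and the grey ones the treatment groups. For g16787.t1, g6507.t1 and g6515.t1 the lowest point is adult control 1, at 198, 82.2 and 69.2 CPM.

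Ratios between members do not depend on how libraries are scaled, and they describe how far a member varied against another in these libraries. Among the 6 pairs of these 4 transcripts, the SD of the log2 ratio over 18 libraries ran from 0.121 to 0.190. The tightest pair was g6507.t1 over g6515.t1, whose ratio was 1.07 at the lowest, 1.25 in the median and 1.48 at the highest. The loosest was g16787.t1 over g6394.t1, with ratios of 7.30, 8.56 and 11.1. Over all 19900 pairs of members the median SD of the log2 ratio was 0.256 and the highest 0.416. A ratio holds the variation of both its transcripts, so these values are not directly comparable with the SD of a single member. The choice used the same libraries and favours tight ratios, most of all among the steadiest members. Pairs of other transcripts in the level range were not examined, so use as a reference was not tested.

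Most of the members' sum of squares lay between replicates of a group, as the design alone would give. In the median member 66.4% of the sum of squares of log2(CPM + 0.1) lay within groups, 20.2% between treatment groups of a stage and 7.87% between the stages. For the level range as a whole these medians were 43.9%, 16.4% and 31.2%. The within-group part exceeded 50% in 162 of the 200. The stage part exceeded 50% in 5 members, against 1293 of the 3821 transcripts of the level range. The shares were not corrected for the number of groups and replicates. With 6 groups of 3, most of the sum falls within groups even without an effect of stage or treatment. The choice itself favours small stage parts, so these values are a description and do not rank the sources of variation. Within larvae alone the median member had an SD of 0.198 log2 units and within adults 0.191, and the larval SD was the larger of the pair in 103 members and the adult SD in 97.

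The members also moved together from library to library. Their summed counts took 1.09% ± 0.0701 (SD, n = 18) of a library, from 0.990% in adult control 1 to 1.21% in adult control 3. By group the share was 1.10% ± 0.0856 in larval controls, 1.13% ± 0.0305 in larvae on-Tc and 1.05% ± 0.0617 in larvae post-Tc (SD, n = 3 each). It was 1.12% ± 0.116 in adult controls, 1.12% ± 0.0398 in adults on-Tc and 1.04% ± 0.0604 in adults post-Tc (SD, n = 3 each). The groups overlapped, and the adult controls alone held both the lowest and the highest library.

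The shared shift was widest between these adult controls. In adult control 1 the median member lay 0.158 log2 units below its own mean (a shift of -0.158), and that library was the lowest of the 18 for 40 members. In adult control 3 the shift was 0.176, and it was the highest of the 18 for 39 members. The median shift of all 3821 transcripts had the same sign as that of the members in 15 of 18 libraries and reached -0.373 in adult control 1. In that library the 10 most abundant transcripts took 31.8% of all counts, where the others ran from 8.91% to 27.0%; adult control 3 had the smallest total, 19158409 counts. The part of either in the shift was not tested.

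Scaling with TMM factors, which align libraries on the bulk of their transcripts and here ran from 0.836 to 1.19, narrowed the shared shift. On that scale it lay between -0.105 in larval control 1 and 0.0995 in adult control 1, so the sign in adult control 1 turned. The median SD of the members fell from 0.209 to 0.194, with a smaller SD in 122 members and a larger one in 78. Membership depended on the scaling. Of the 200, 129 would also be among the 200 steadiest on TMM-scaled CPM, and the member that dropped farthest came to rank 638.

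**Figure D3:**
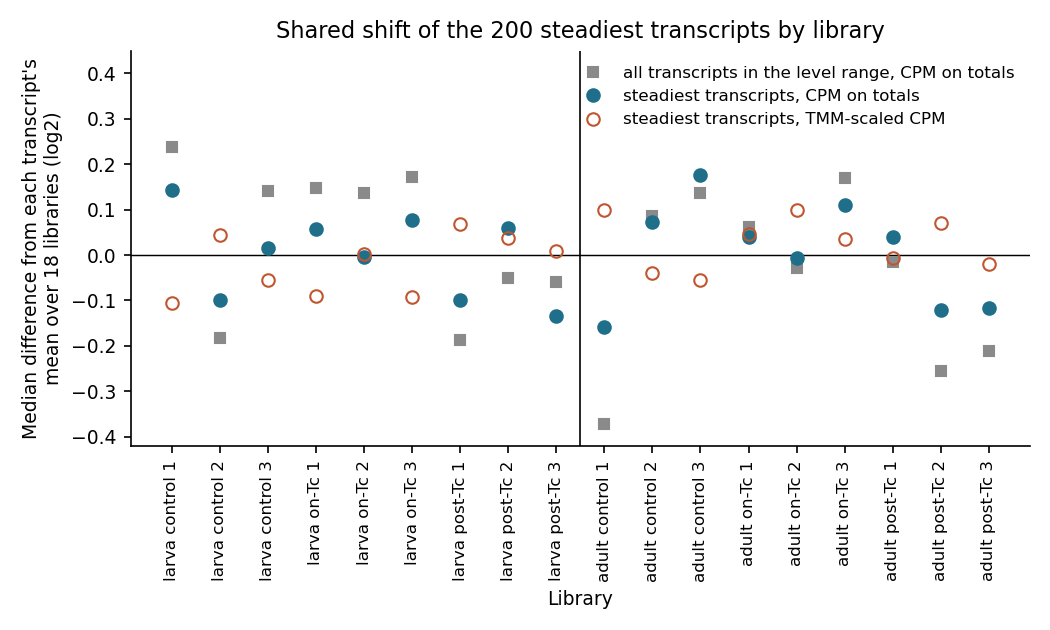
Median difference (log2) of each library from the transcripts' means over 18 libraries, for all 3821 transcripts of the level range (grey squares), for the 200 members on CPM (filled circles) and for the members on TMM-scaled CPM (open circles). The members follow the level range in most libraries, and adult control 1 moves from -0.158 to 0.0995 with TMM scaling.

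The chosen transcripts can also be read in libraries that the choice did not use. Each library was left out in turn, the rule was applied to the other 17, and the chosen 200 were then read in the library left out. Their median fold difference from the mean of the 17 was 1.07 to 1.22, whereas that of all transcripts in the level range was 1.22 to 1.58. The ratio of the log2 deviations, chosen to all, was 0.419 ± 0.0863 (SD, n = 18) and was below 1 in 18 of 18 libraries. The 17 libraries include others of the same stage and group, and the choice keeps out large stage differences. A ratio below 1 was therefore favoured in advance, and nothing is read from it. The 18 choices overlap, so the SD is not a spread over independent trials. The ratio ran from 0.293 in larva on-Tc 2 to 0.614 in adult control 3. In the median library 97.8% of the chosen transcripts lay within 1.5-fold of their level elsewhere, against 62.3% of the level range. Adult control 1 was again the least steady, with 87.5% of the chosen and 44.8% of all transcripts within 1.5-fold.

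Leaving out whole groups gave similar values, with the same limit, as the remaining libraries still hold both stages. With each group of 3 held out and the rule applied to the other 15 libraries, the ratio was 0.411 ± 0.0473 (SD, n = 6), lowest for larva on-Tc (0.350) and highest for adult control (0.468). Among adults on-Tc, 93.8% of the chosen transcripts lay within 1.5-fold of their level in the other 15 libraries, against 63.3% of the level range. In larvae on-Tc the shares were 97.5% and 57.6%. Without the 3 larval libraries that stood apart, the ratio over single held-out libraries was 0.416 ± 0.104 (SD, n = 15).

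**Figure D4:**
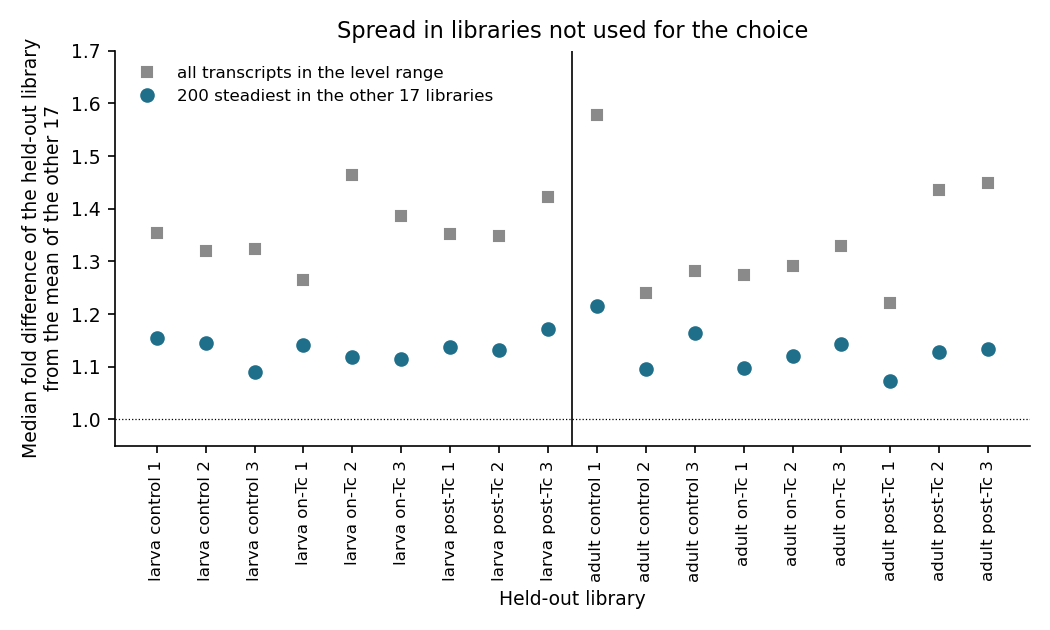
Median fold difference of each held-out library from the mean of the other 17, for the 200 transcripts steadiest in those 17 (blue circles) and for all transcripts of the level range (grey squares). In each of the 18 libraries the chosen transcripts lie below the level range, at 1.07 to 1.22 against 1.22 to 1.58.

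The rule was also applied to the 6 control libraries alone, larval and adult, and the 200 chosen there were read in the 12 libraries on or after tetracycline. Their median SD was 0.175 in the controls that chose them and 0.274 in the treated libraries, where the level range had a median of 0.541. Of the 200, 64 (32.0%) stayed within the SD limit of 0.235 in the treated libraries, against 6.66% of the 3841 transcripts in that level range. The group means of the chosen transcripts differed from the controls of their stage by a median of 1.07-fold in larvae on-Tc, 1.10-fold in larvae post-Tc, 1.11-fold in adults on-Tc and 1.10-fold in adults post-Tc. In the same order the medians of the level range were 1.15-fold, 1.16-fold, 1.26-fold and 1.16-fold. In each of the 4 comparisons 0 of the 200 differed by over 2-fold, where 3.12%, 3.38%, 9.14% and 5.70% of the level range did. The treated means share their control libraries with the choice, so these folds are not independent of it. The spread among the 12 treated libraries uses none of the control libraries, but both sets hold larvae and adults. Without the 3 larval libraries that stood apart, the median SD in the treated libraries was 0.270 for the chosen and 0.534 for the level range.

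Transcripts steadiest in a single stage varied more in the other stage, but less there than their level range. An SD chosen as the smallest tends to rise in any libraries not used for the choice. The part of stage in the rise was not tested. The 9 larval and the 9 adult libraries share no library, and the rule was applied to each set on its own. The 200 transcripts steadiest in larvae had a median SD of 0.147 there and 0.274 in adults, where their level range had 0.393. The 200 steadiest in adults had a median SD of 0.149 there and 0.273 in larvae, where their level range had 0.400. The lists had 18 transcripts in common, 9% of each. Only the 2875 transcripts in the level range of both stages could be shared, 181 of them on the larval list. Of those 181, 9.94% were on the adult list, against 6.43% of the 2875. With TMM-scaled CPM the lists had 43 in common (22.3% against 6.45%). Without the 3 larval libraries that stood apart they had 13 (6.88% against 6.37%). Of the 200 members, 69 were on the larval list and 63 on the adult one.

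Transcripts chosen within a stage differed less between stages than their level range did, though some differed by over 2-fold. The transcripts steadiest in larvae differed between stages by a median of 1.19-fold, and 7 of the 200 (3.5%) differed by over 2-fold, against 23.9% of their level range. Those steadiest in adults differed by a median of 1.22-fold, and 15 of the 200 (7.5%) differed by over 2-fold, against 26.9%. All transcripts in these level ranges differed by a median of 1.40-fold and 1.42-fold. Each difference uses the mean of the stage whose libraries made the choice, so these folds are not independent of it.

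**Figure D5:**
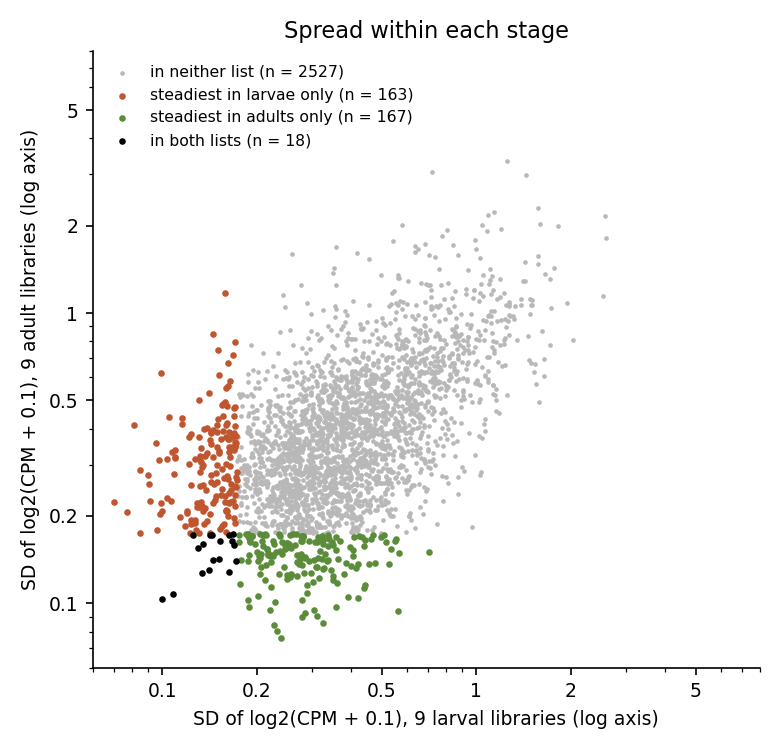
SD of log2(CPM + 0.1) in the 9 larval libraries against that in the 9 adult libraries (log axes) for transcripts in the level range of both stages. The 163 steadiest in larvae only and the 167 steadiest in adults only spread widely along the other axis, and 18 are in both lists.

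Between stages the members kept small differences, and some passed the test across all transcripts. Adults were compared with larvae over all 18 libraries by edgeR's quasi-likelihood test, averaged over the 3 treatments, with Benjamini-Hochberg adjustment over all 12599 transcripts tested and a false discovery rate (FDR) limit of 0.05. Of the 200 members 24 were called, where 52.6% of all transcripts tested were called and 58.4% of those in the level range. Of these 24, 19 were higher in adults by 1.17-fold to 1.27-fold (26.4% of all transcripts were called higher) and 5 were lower by 1.17-fold to 1.23-fold (26.2% called lower). The choice used these libraries and kept large stage differences out, so nothing is read from the count. Over all members the median difference in either direction was 1.08-fold, and the adult and larval libraries did not overlap for 0 of the 200, against 14.6% of all transcripts tested and 19.1% of the level range.

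The number of members on each side of 0 shifted with the scaling. On library totals 105 members were higher in adults and 95 in larvae, while with TMM factors the split was 124 and 76. Without scaling factors edgeR called 10 members, 6 higher and 4 lower and all 10 among the 24, where 50.2% of all transcripts were called. DESeq2 called 39 of the 200 (56.1% of all transcripts called) and limma-voom 22 (51.3% called). The count of 24 also fell when a library was left out, to 14 without larva control 1, larva on-Tc 3 or adult on-Tc 3, and to 15 without larva control 3, larva post-Tc 1, adult control 1 or adult on-Tc 1. It was 11 without adult post-Tc 1, where 6597 of 13047 transcripts were called, and 9 without adult post-Tc 2, where 6311 of 13054 were. All fits with a library left out called 6266 to 6831 of 12940 to 13063 transcripts, against 6629 of 12599 with all 18 libraries. When transcripts of low count were kept in the fit, the count of members was 3, with 0 higher in adults and 3 lower. That fit called 3168 of 18698 transcripts higher and 3539 lower. Without the 3 larval libraries that stood apart, the median log2 difference of the members was 0.0651, against 0.0519 with all 18 libraries.

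The largest rises towards adults among the called members were those of g17310.t1 and g8481.t1. The level of g17310.t1 was 67.5 at the lowest, 80.1 in the median and 98.0 CPM at the highest in larvae, and 91.0, 103 and 110 CPM in adults. The stages overlapped, with 7 of the 9 larval libraries below every adult one. The fitted log2 difference was 0.35 ± 0.12 (SE; edgeR FDR 0.0206), or 0.31 (FDR 0.0504) without adult post-Tc 2 and 0.30 (FDR 0.0782) with transcripts of low count kept in the fit. For g8481.t1 the levels were 16.4, 17.7 and 23.0 CPM in larvae and 19.5, 22.1 and 26.3 CPM in adults, again with 7 larval libraries below every adult one. Its log2 difference was 0.34 ± 0.12 (SE; edgeR FDR 0.0218), and the call was lost without larva control 3 (FDR 0.0521), adult on-Tc 2 (FDR 0.0526) or adult post-Tc 2 (FDR 0.0529), and with transcripts of low count kept in the fit (FDR 0.0898).

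The largest falls were those of g20009.t1 and g1995.t1. For g20009.t1 the lowest, median and highest levels were 90.9, 101 and 116 CPM in larvae and 68.0, 79.1 and 100.2 CPM in adults. Of the 9 adult libraries 8 lay below every larval one, the exception being adult on-Tc 3. Its fitted log2 difference, adults minus larvae, was -0.29 ± 0.09 (SE, edgeR FDR 0.0105). The transcript passed the FDR limit in 28 of 28 alternative fits. Those fits, like the ones given for the other named members, reuse libraries that the choice used, so their agreement is no separate support. For g1995.t1 the levels were 29.3, 32.1 and 37.2 CPM in larvae and 20.5, 26.0 and 30.4 CPM in adults, with 7 of the 9 adult libraries below every larval one. The difference was -0.28 ± 0.10 (SE; edgeR FDR 0.0270), and the call was lost without larva post-Tc 1 (FDR 0.0531), adult control 3 (FDR 0.0544), adult on-Tc 1 (FDR 0.0536) or the 3 larval libraries that stood apart (FDR 0.0951).

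No member passed edgeR's test for tetracycline. Each of the 6 comparisons was fitted on its stage's 9 libraries, and 0 of the 200 members were called in any of them, where 0.476% of 12383 transcripts were called in at least 1 (0.236% for on-Tc against control and 0.437% for post-Tc against on-Tc in adults, and 0% in the other 4). At an unadjusted p under 0.05, edgeR gave 0 members for on-Tc against control in larvae (2.45% of all transcripts), 0 for post-Tc against control (2.38%) and 2 for post-Tc against on-Tc (5.33%). In adults it gave 6 members for on-Tc against control (21.2% of all transcripts), 3 for post-Tc against control (6.56%) and 7 for post-Tc against on-Tc (21.5%). Limma-voom called 0 members in each (0.525% of all transcripts in at least 1). DESeq2 called 7 members in at least 1 comparison, where it called 15.1% of all transcripts, and its calls among the members were all in adults. The comparisons of a stage share libraries, and the choice used them all, so nothing is read from these counts.

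The median fitted treatment difference of the members was small, as the choice required. The median difference in either direction was 1.06-fold for on-Tc and 1.06-fold for post-Tc against control in larvae, and 1.08-fold and 1.07-fold in adults. For post-Tc against on-Tc it was 1.09-fold in both stages. Against controls, the widest fitted differences in adults were 1.49-fold lower and 1.39-fold higher, both on-Tc, and in larvae 1.32-fold lower on-Tc and 1.36-fold higher post-Tc. Post-Tc against on-Tc, they reached 1.42-fold higher in larvae and 1.42-fold lower in adults. None of these passed the test. The median standard error of a member's log2 change was 0.205 in the larval and 0.165 in the adult fits. The difference between the stages in their response to tetracycline was tested over all 18 libraries, and edgeR called 0 members and 0 of 12599 transcripts in each of the 3 interactions. At an unadjusted p under 0.05 the interactions gave 3 members for on-Tc against control (7.17% of all transcripts), 2 for post-Tc against control (5.2%) and 9 for post-Tc against on-Tc (10.6%).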

How the data were processed

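Poly(A)-selected RNA of 18 midgut libraries was sequenced, per the labels' protocols. The authors deposited unnormalized counts, 1 row per predicted transcript. The submitters' processing notes name Trimmomatic, STAR, featureCounts and DESeq2. Not given in the sources used here are their versions, the build, the gene models, whether strand was used and how read pairs were counted. Columns were matched to samples by library name. Pairs of replicates differed by more than sampling noise, with a chi-square of 295 to 1387 per degree of freedom over 18 pairs.

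CPM were taken on column totals with a pseudocount of 0.1. The counts were tested with edgeR 4.0.16 in R 4.3.3 (filterByExpr with minimum count 10 and total 15, TMM, glmQLFit and glmQLFTest, FDR under 0.05). Standard errors were derived from the F statistic. The scripts were tested on simulated data. Alternatives were DESeq2 1.42.0, limma-voom 3.58.1, other scalings and filters, halved counts, covariates and left-out libraries. Figures used matplotlib 3.10.9.

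The members, lists and tests were chosen with earlier results of these data known. The naming rule took the 4 steadiest members, the transcripts at ranks 200 and 201, and per comparison the 2 called members with the largest rise and the 2 with the largest fall. Lists of reference genes and cell type markers had been set by gene name and could not be matched to the IDs. Same-numbered libraries did not consistently deviate together. Their correlation across transcripts ran from -0.363 to 0.331 and was over 0.1 in 4 of 27 pairs. No pairing was assumed.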

Additional observations from a re-analysis of the deposited data

How the results depend on the processing

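Of the 200 members, 129 were also among the 200 steadiest with TMM-scaled CPM, 132 with RLE-scaled CPM and 109 when ranked by the median absolute deviation. With halved counts 200 remained, with a pseudocount of 1 195, with libraries thinned to the smallest total 178, without the 3 larval libraries that stood apart 153, and with a single library left out 164 to 194. The members called between stages numbered 39 with DESeq2, 10 with library totals alone, 3 without a filter on low counts, and 9 to 22 with a library left out, against 24. Over all transcripts the same fits called 7064 of 12599, 6321 of 12599, 6707 of 18698 and, with a library left out, 6266 to 6831, against 6629 of 12599. Members called in a treatment comparison numbered 7 with DESeq2, which called 15.1% of all transcripts. They numbered 0 under the other alternatives that kept more than 1 library in each group. Those fits called few transcripts of any kind, from 0 to 93, with 2 of 12383 on library totals alone. A count of 0 among the members lies near that share, so nothing is read from it. The transcripts common to the larval and adult lists numbered 43 with TMM-scaled CPM and 5 with lists of 100, against 18, and 14 to 26 with a library left out. The ratio of held-out deviations stayed within the spread between libraries under the 5 alternatives tried, of which leaving out the 3 larval libraries was chosen after seeing the data. The cause of these differences was not tested. With the replicate number as a block edgeR called 16 members between stages, where it called 6352 of 12599 transcripts. In treatment comparisons that fit called 0 members and 0 of 12383 transcripts. Of the 18 libraries, 2 lay closest to the libraries of their own number. Where post-Tc larvae kept a single library, it was assumed to vary like the other groups. The members' treatment changes, with 3 libraries per group, carried median standard errors of 0.165 to 0.205 log2 units.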
